A study of Mus musculus with 15 samples.

Results

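Cholesterol synthesis and sterol handling were followed through 28 genes in adipocytes of mouse dorsal skin, measured by bulk RNA sequencing. The genes were chosen by name for what they encode, with earlier results of these data known. All 28 were found among the 35373 genes of the deposited count table. Of these, 20 encode enzymes of the cholesterol pathway, counted here as synthesis enzymes with Ggps1 of a side branch among them, 4 encode proteins that control the pathway, and 4 encode proteins that move, store or export sterols. All 28 passed the filter on low counts, with 1062 to 75414 counts per gene over the 15 libraries.

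The adipocytes were the cells that floated after dorsal skin was digested with collagenase. The Wnt mice (EngrailedCre/+; Rosa26rtTA/Rosa26rtTA; TetOBcat/+) carried a Cre recombinase that acts in the Engrailed lineage, a doxycycline-dependent transactivator and a TetO-driven β-catenin, the effector of Wnt signalling. The Wnt libraries came from mice with 2 days of activation at postnatal day 23 (P23, n = 4) and with 5 days of activation at postnatal day 26 (P26, n = 5). The controls came from mice without the Cre allele (+/+; Rosa26rtTA/Rosa26rtTA; TetOBcat/+) at P23 (n = 3) and at P26 (n = 3). Doxycycline was given to all mice, controls included, at 6 g/kg in food and 2 mg/mL in water. The floating fraction can hold adipocytes outside the Engrailed lineage and other skin cells, and in such bulk samples fewer cells of a type and less RNA per cell cannot be told apart.

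Cells build cholesterol from acetyl-CoA by way of mevalonate, isoprenoid units, squalene and lanosterol. The transcription factor SREBP2, encoded by Srebf2, raises the enzymes of this route when membrane sterol is low, and the liver X receptors raise sterol export when oxidised sterols accumulate. Adipocytes are known for holding a large store of free cholesterol on and around the lipid droplet, much of it taken up from lipoproteins rather than made in the cell.

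Total counts ran from 11383421 to 38501753 per library, and levels are given as CPM, counts scaled by the TMM-normalised library size. The replicate numbers mark biological replicates by the labels. Axin2, a feedback inhibitor widely read as a sign of Wnt/β-catenin activity, stood at 10.01, 27.6, 65.0 and 43.5 CPM in the 2-day libraries against 39.8, 8.36 and 5.48 CPM in the P23 controls. It stood at 28.2, 62.8, 37.2, 43.6 and 44.8 CPM in the 5-day libraries against 34.8, 9.07 and 4.17 CPM in the P26 controls. The libraries labelled 2-day replicate 1, P23 control replicate 1 and P26 control replicate 1 thus went against their labels in Axin2, and the authors' sample sheet lists the first of them as a control. Y-linked transcripts split the libraries in the same way. The 10 libraries with 44.8 CPM or more of them held 27.6 to 65.0 CPM of Axin2, and the 5 libraries with at most 1.39 CPM held 4.17 to 10.01 CPM. With the 3 libraries left out, all Wnt libraries hold Y-linked transcripts and no control does, so Wnt activation and sex cannot be told apart there. Within a group, Y-linked transcripts are present in some libraries and absent in others only through these 3 libraries. A fit with Y-linked transcripts as a covariate is therefore set mainly by them. The libraries with Y-linked transcripts alone keep only P23 control replicate 1 and P26 control replicate 1 as controls. That fit thus compares Wnt libraries with controls that are also high in Axin2, and neither fit is a check on sex alone. Adipoq encodes adiponectin, which defines adipocytes, and it was found in every library. Its lowest levels were 722 CPM in 5-day replicate 5 and 369.7 CPM in P26 control replicate 1, whose fellow P26 controls held 3346 and 5259 CPM. Results below are given with all libraries as labelled. Values without the 3 libraries stand beside the counts of genes and, at 5 days, the genes described library by library, and those of other alternatives where they move a value far.

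Each gene was tested with edgeR's quasi-likelihood test, with p-values adjusted over all 16935 genes tested. No gene of the whole table, and therefore none of the 28, passed an adjusted p of 0.05 at 2 days, at 5 days or in the mean of both effects (percent called 0.0 in each). The members' smallest adjusted p was 0.921 at 2 days, 0.569 at 5 days and 0.355 for the mean effect. At an unadjusted p under 0.05 the table held 875 genes at 2 days, 1195 at 5 days and 1329 for the mean effect. The differences below are therefore values, not calls. The members were chosen with earlier results of these data known, so their counts beside the background are descriptions and not tests.

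At 5 days most enzymes of cholesterol synthesis stood lower in Wnt adipocytes than in P26 controls. The log2 fold change was below 0 for 19 of the 20 synthesis enzymes, with a median of -0.83, whereas 48.4% of all genes tested were below 0 and their median was 0.03. Over all 28 genes 25 were below 0, with a median of -0.56. At an unadjusted p under 0.05, 6 of the 28 were lower and 0 higher, against a background of 3.04% of all genes lower and 4.02% higher. These were Pmvk, Fdps, Lss, Cyp51, Nsdhl and Dhcr7, which were singled out here after their values were seen. Without the 3 libraries, 18 of the 20 enzymes were below 0 with a median of -0.78. In the libraries with Y-linked transcripts alone, where 1 control is left at each age and is assumed to vary like the other groups, 13 of the 20 were below 0 with a median of -0.31. With Y-linked transcripts as a covariate, a fit set mainly by the 3 libraries, 15 of the 20 were below 0 with a median of -0.42. Without P26 control replicate 2 the median over all 28 was -0.81. In a limma-voom fit that weights the libraries, 15 of the 20 enzymes were below 0 with a median of -0.67. Over all 28 genes that fit had 18 below 0, with a median of -0.40.

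At 2 days the values lay closer to 0. Of the 20 synthesis enzymes 18 were below 0, with a median of -0.42, and over all 28 genes 21 were below 0 with a median of -0.34, against 49.9% of all genes and a median of 0.00. None of the 28 reached an unadjusted p of 0.05 at 2 days, where the background was 2.2% lower and 2.96% higher. Without the 3 libraries 18 of the 20 enzymes were below 0 with a median of -0.62. Without P23 control replicate 2 the median over all 28 was -0.086, and in the libraries with Y-linked transcripts alone 12 of the 20 enzymes were below 0 with a median of -0.13. The difference between the 5-day and 2-day effects was tested directly. It was below 0 for 20 of the 28, and 0 of them reached an unadjusted p of 0.05, against 5.72% of all genes. The smallest adjusted p of a member in that edgeR test was 0.940, so the effects at 2 and 5 days were not shown to differ. Averaged over both ages, 23 of the 28 were below 0 with a median of -0.36, against 48.5% of all genes, and 8 of the 28 were lower at an unadjusted p under 0.05, against 2.78% of all genes. These 8 were the 6 named above with Sqle and Mvk. Without the 3 libraries 19 of the 28 were below 0 with a median of -0.36, and 9 reached that p. The 8 became 2 with Y-linked transcripts as a covariate, 3 in the libraries with Y-linked transcripts alone and 4 without P23 control replicate 2.

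**Figure D1:**
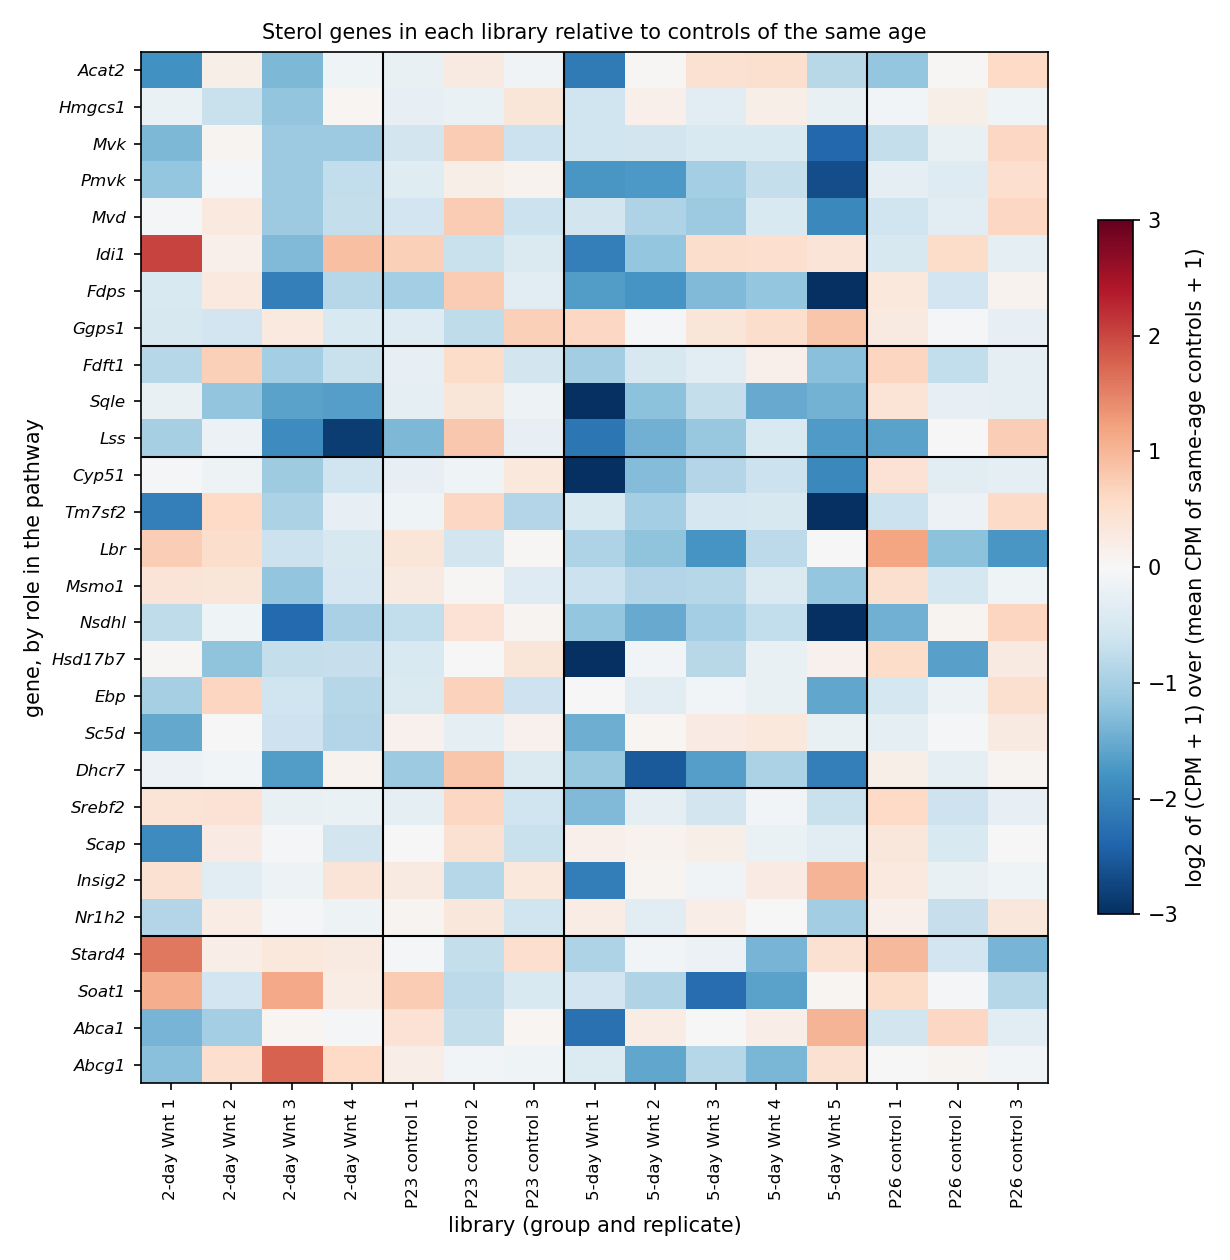
Level of each of the 28 genes (rows, grouped by role) in each of the 15 libraries (columns), as log2 of CPM + 1 over the mean CPM + 1 of the controls of the same age. Colours are cut off at -3 and 3. In the 5-day columns Pmvk, Fdps, Sqle, Cyp51 and Dhcr7 are blue (below the control mean) in every library, as are Mvk, Mvd, Lss, Tm7sf2, Msmo1, Nsdhl and Srebf2. Ebp is below the control mean in every 5-day library too, but 5-day replicate 1 (61.46 CPM) nearly equals that mean (61.49 CPM). The other rows hold both colours there, and the control columns differ among themselves.

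**Figure D2:**
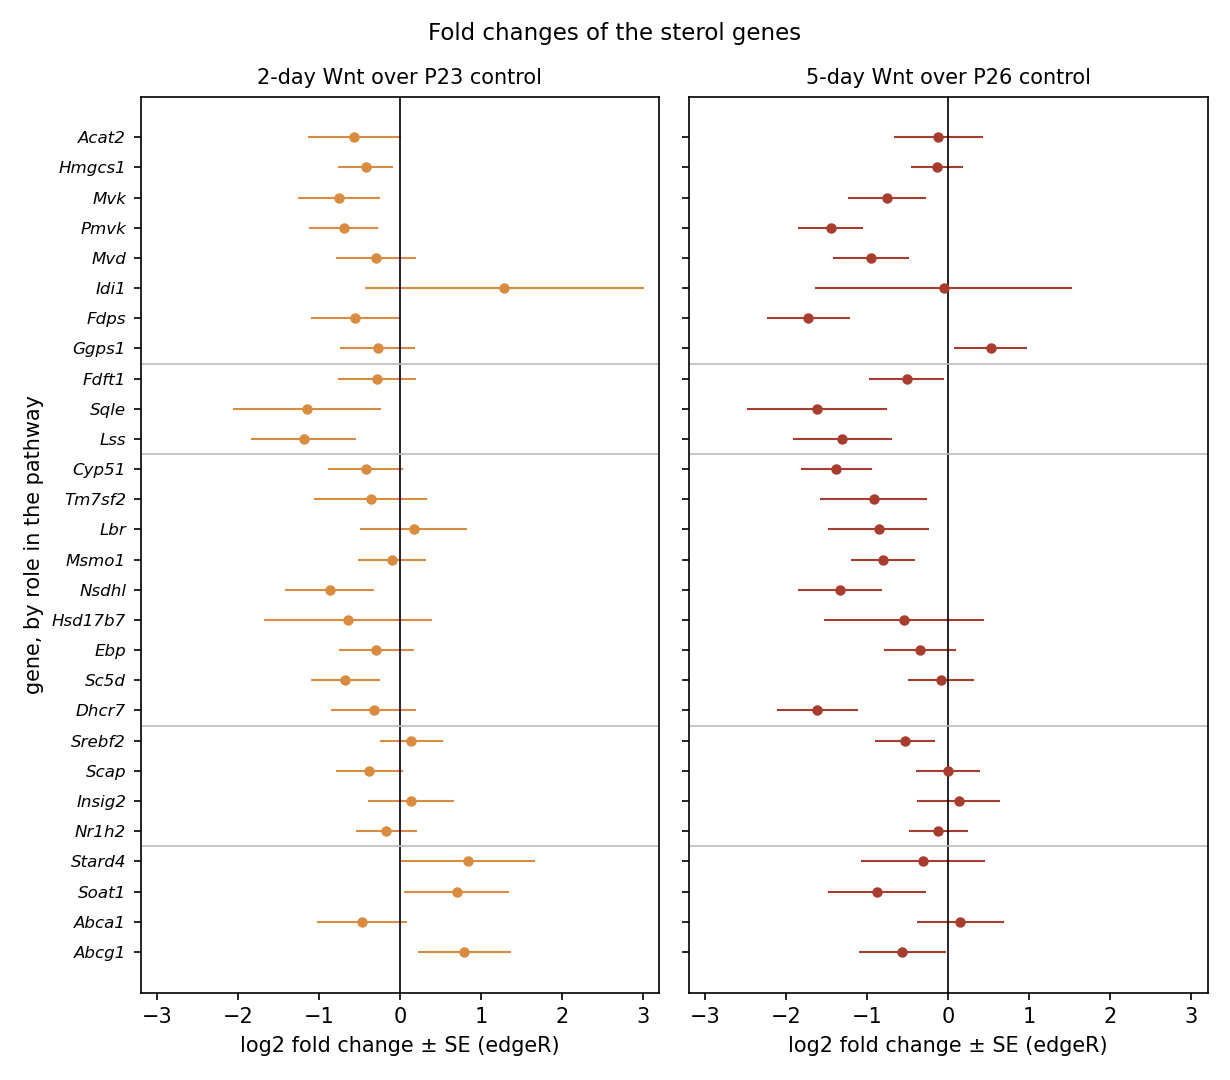
Log2 fold change of each gene with its SE from edgeR, for 2-day Wnt over P23 controls (left, n = 4 and 3) and 5-day Wnt over P26 controls (right, n = 5 and 3). Grey lines separate the roles. The synthesis enzymes lie left of 0 in 18 of 20 cases at 2 days and in 19 of 20 at 5 days, and Idi1, the scarcest gene, has the widest error.

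Groups that do not overlap mark the clearest of these differences. At 5 days every Wnt library lay below every P26 control for 5 of the 28 genes, Pmvk, Fdps, Sqle, Cyp51 and Dhcr7, against a background of 2.25% of all genes tested. None lay above every control, where the background was 3.39%. At 2 days 0 of the 28 were separated in either direction, against 2.91% of all genes below and 2.24% above. These sets depend on the 3 libraries. Without them, Pmvk, Sqle, Cyp51, Nsdhl and Hsd17b7 were separated below at 2 days and Abcg1 above. At 5 days Mvk, Mvd, Lss, Tm7sf2 and Nsdhl then joined those below, and Ggps1 lay above. The share over all genes was not computed there, and smaller groups separate more easily. The 5 genes separated with all libraries belong to different stretches of the pathway, from the mevalonate kinases to the last reduction. They were picked out by this criterion after their values were seen.

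Promoter sequences of Hmgcs1, Pmvk, Cyp51 and Dhcr7 are printed to show which motif letters these promoters do and do not hold. Hmgcs1 was printed because it was the only synthesis enzyme whose promoter window held TCACNCCAC on either strand. These letters are a fixed form of the sterol regulatory element, the kind of site SREBP2 binds. Other forms were not searched, so a window without these letters may still hold such an element. The other promoters printed are those of the 5 separated genes for which a window was at hand, the one nearest the gene start being shown. Each window runs from 250 bases before to 50 bases after a transcription start, read 5′ to 3′ on the gene's strand from RefSeq, build GRCm38.p6. Capitals mark TCACNCCAC and, on either strand, CCAAT, the box bound by NF-Y. These motifs did not overlap in any of the windows. The windows lie at chr13:119690101-119690400 on the plus strand for Hmgcs1, chr3:89454291-89454590 on the plus strand for Pmvk, chr5:4104648-4104947 on the minus strand for Cyp51 and chr7:143822917-143823216 on the plus strand for Dhcr7.
Hmgcs1: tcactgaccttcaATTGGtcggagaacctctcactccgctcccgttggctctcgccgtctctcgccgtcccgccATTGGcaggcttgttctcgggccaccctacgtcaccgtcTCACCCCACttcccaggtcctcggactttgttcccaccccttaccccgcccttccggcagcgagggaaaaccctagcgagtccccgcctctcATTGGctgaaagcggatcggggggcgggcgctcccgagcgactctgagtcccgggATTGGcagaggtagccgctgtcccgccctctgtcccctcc
Pmvk: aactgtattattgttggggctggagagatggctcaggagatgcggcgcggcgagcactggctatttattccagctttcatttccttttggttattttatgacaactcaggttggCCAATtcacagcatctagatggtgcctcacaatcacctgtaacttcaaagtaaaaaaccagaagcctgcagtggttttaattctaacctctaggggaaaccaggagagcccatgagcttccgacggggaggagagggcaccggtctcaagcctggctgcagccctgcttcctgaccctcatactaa
Cyp51: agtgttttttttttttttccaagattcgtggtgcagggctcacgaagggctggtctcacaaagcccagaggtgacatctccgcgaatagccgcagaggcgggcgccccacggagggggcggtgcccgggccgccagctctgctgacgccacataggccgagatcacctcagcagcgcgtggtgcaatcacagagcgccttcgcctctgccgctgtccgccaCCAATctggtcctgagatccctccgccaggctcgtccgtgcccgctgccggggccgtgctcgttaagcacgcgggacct
Dhcr7: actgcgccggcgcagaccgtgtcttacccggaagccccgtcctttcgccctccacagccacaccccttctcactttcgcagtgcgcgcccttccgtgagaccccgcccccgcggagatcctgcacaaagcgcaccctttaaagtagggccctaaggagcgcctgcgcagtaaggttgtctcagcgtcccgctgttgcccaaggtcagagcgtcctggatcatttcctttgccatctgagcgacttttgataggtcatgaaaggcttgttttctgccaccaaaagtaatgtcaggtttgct

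The Hmgcs1 window held the sterol element letters TCACCCCAC starting 137 bases before the transcription start, and 4 CCAAT boxes. The Pmvk and Cyp51 windows held 1 CCAAT box each, and the Dhcr7 window shown held 0. Windows were available for 23 of the 28 genes and 17 of the 20 synthesis enzymes. TCACNCCAC was found in 5% of the 20 windows of synthesis enzymes and in 1.24% of the 32851 windows of all genes. CCAAT was found in 80% of the synthesis windows and in 37.4% of all windows, and GGGCGG, the GC box bound by Sp1 (either strand), in 80% and 35.7%. These matches are letters in a window and not measured binding.

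The first steps turn acetyl-CoA into mevalonate and then into isoprenoid units. Acat2 (ENSMUSG00000023832, chromosome 17, 12942890 to 12960747, minus strand, build GRCm38 here and for the other genes) encodes the cytosolic acetyl-CoA acetyltransferase that makes acetoacetyl-CoA, and it had the highest level per length of the 28, 58.8 CPM per kb of exon sequence. It stood at 60.9, 246, 85.3 and 201 CPM in the 2-day libraries, against 189, 264 and 204 CPM in the P23 controls. It stood at 29.5, 135, 181, 184 and 73.4 CPM in the 5-day libraries, against 58.2, 135 and 199.9 CPM in the P26 controls. The groups overlapped at both ages, with a log2 fold change of -0.56 ± 0.57 (SE, here and below) after 2 days of activation and -0.12 ± 0.55 after 5 days. The 5-day value of Acat2 was -0.46 without the 3 libraries and 1.04 in the libraries with Y-linked transcripts alone, so its direction turned there.

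Hmgcs1 (ENSMUSG00000093930, chromosome 13, 119690379 to 119708260, plus strand) encodes the cytosolic HMG-CoA synthase, which feeds HMG-CoA to mevalonate synthesis. It stood at 117, 84.0, 58.6 and 141 CPM in the 2-day libraries, against 112, 117 and 174 CPM in the P23 controls. It stood at 83.1, 139, 98.3, 143 and 107 CPM in the 5-day libraries, against 119.5, 143 and 115 CPM in the P26 controls. The 5-day and control libraries interleave. Its 5-day log2 fold change was -0.14 ± 0.32, with a 95% interval of -0.82 to 0.54, which leaves room for a moderate difference either way. The Hmgcs1 values without the 3 libraries were -0.64 at 2 days and -0.17 at 5 days, and with Y-linked transcripts as a covariate the 5-day value was 0.0057.

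Mevalonate is then phosphorylated by mevalonate kinase and phosphomevalonate kinase. Mvk encodes the first, and stood at 25.2, 69.6, 30.2 and 30.4 CPM in the 2-day libraries, against 44.2, 111 and 41.3 CPM in the P23 controls. At 5 days it stood at 35.2, 36.6, 39.2, 39.1 and 9.67 CPM, against 32.5, 46.1 and 83.2 CPM in the P26 controls. For Mvk the log2 fold change was -0.75 ± 0.51 at 2 days and -0.76 ± 0.48 at 5 days, and the groups overlapped in both cases. The Mvk values without the 3 libraries were -0.81 and -1.002, and in the libraries with Y-linked transcripts alone they were -0.032 and -0.047.

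Pmvk (ENSMUSG00000027952, chromosome 3, 89454541 to 89469013, plus strand) encodes phosphomevalonate kinase. It stood at 61.8, 134, 63.9 and 82.0 CPM in the 2-day libraries, against 107, 157 and 149.8 CPM in the P23 controls. It stood at 28.2, 28.8, 47.6, 59.5 and 14.6 CPM in the 5-day libraries, against 81.1, 73.9 and 138 CPM in the P26 controls. All 5-day libraries lay below all P26 controls, and 3 of the 4 2-day libraries below all P23 controls. Pmvk averaged 35.7 ± 17.7 CPM at 5 days (SD, n = 5) and 97.7 ± 35.2 CPM in P26 controls (SD, n = 3), a log2 fold change of -1.45 ± 0.40 with an edgeR adjusted p of 0.569. The mean of both effects was -1.07 ± 0.29, with an edgeR adjusted p of 0.355.

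Pmvk was the only one of the 28 to pass in another tool. DESeq2 gave an adjusted p of 0.0375 at 5 days, where it called 1.18% of all genes, and 0.0270 for the mean effect, where it called 1.9%. At 2 days DESeq2 called 0.88% of all genes and none of the 28. The weighted limma-voom fit gave 0.0849 at 5 days and called 1.33% of all genes but none of the 28, and for the mean effect it called 0.065% and none. Over 28 alternative settings the 5-day log2 fold change of Pmvk ran from -1.71 to -1.12. It was -1.55 without the 3 libraries and -1.20 in the libraries with Y-linked transcripts alone, where P26 control replicate 1 is the one P26 control and is assumed to vary like the other groups.

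Fdps (ENSMUSG00000059743, chromosome 3, 89093588 to 89101959, minus strand) encodes farnesyl diphosphate synthase, at the branch between sterols and other isoprenoids. It stood at 48.6, 82.7, 15.4 and 36.9 CPM in the 2-day libraries, against 32.8, 115 and 53.6 CPM in the P23 controls, which overlap. It stood at 21.5, 20.1, 27.4, 30.8 and 6.46 CPM in the 5-day libraries, against 87.6, 47.3 and 76.2 CPM in the P26 controls, with no overlap. For Fdps the log2 fold change was -0.55 ± 0.55 at 2 days and -1.73 ± 0.51 at 5 days, the lowest of the 28 at that age, with an edgeR adjusted p of 0.612. The Fdps values without the 3 libraries were -0.90 at 2 days and -1.52 at 5 days, and in the libraries with Y-linked transcripts alone they were 0.45 and -2.06. A predicted gene on the same strand, Gm43738, shares 26.7% of the exonic bases of Fdps, so reads between these genes may have been split.

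Ggps1 encodes geranylgeranyl diphosphate synthase, which leads away from sterols to prenylated proteins. It was the only synthesis member above 0 at 5 days, with a log2 fold change of 0.52 ± 0.45 and a level of 13.0 to 24.9 CPM in the 5-day libraries, against 11.2 to 16.4 CPM in the P26 controls. Its value stayed above 0 in all 28 alternatives, at 0.22 to 0.69, with an edgeR adjusted p of 0.914. Mvd, which encodes the decarboxylase that makes isopentenyl diphosphate, stood at 6.83 to 20.8 CPM at 5 days, against 18.9 to 45.1 CPM in P26 controls, a log2 fold change of -0.95 ± 0.46. Idi1, the isomerase of that product, held only 1062 counts in all and was listed at 0 in 2 Wnt libraries. Its fold changes, 1.29 ± 1.72 at 2 days and -0.055 ± 1.59 at 5 days, are smaller than their errors.

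Squalene is made, oxidised and closed into lanosterol by the products of Fdft1, Sqle and Lss. Fdft1 encodes squalene synthase, the first enzyme committed to sterols, and stood at 33.9, 102, 30.3 and 39.0 CPM in the 2-day libraries, against 52.2, 92.4 and 42.2 CPM in the P23 controls. At 5 days it stood at 23.9, 35.5, 40.3, 55.7 and 20.4 CPM, against 79.6, 29.8 and 41.3 CPM in the P26 controls. These groups overlapped, and the 5-day log2 fold change of -0.51 ± 0.46 became -0.00175 without the 3 libraries and -1.20 in the libraries with Y-linked transcripts alone. Fdft1 shares 18.3% of its exonic bases with Ctsb on the opposite strand, a gene with 679125 counts against 17981 for Fdft1, and the use of strand in counting is not given in the sources used here.

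Sqle (ENSMUSG00000022351, chromosome 15, 59315077 to 59331192, plus strand) encodes squalene epoxidase, a rate-limiting step of the sterol branch. It stood at 13.3, 6.38, 4.49 and 4.35 CPM in the 2-day libraries, against 12.6, 20.6 and 14.1 CPM in the P23 controls. In the 5-day libraries it stood at 0, 6.48, 9.72, 5.19 and 5.64 CPM, against 22.5, 14.0 and 13.5 CPM in the P26 controls. The library at 0 CPM, 5-day replicate 1, allows up to 0.254 CPM (a floor of 3 counts, which covers counting error only). Every 5-day library lay below every P26 control, and at 2 days only the library labelled 2-day replicate 1 reached the control range. The 5-day log2 fold change was -1.62 ± 0.86, 3.07-fold lower, with an edgeR adjusted p of 0.710. It was -1.33 without the 3 libraries and -2.07 in the libraries with Y-linked transcripts alone, and the 2-day value, -1.15 ± 0.92, was -1.78 without the 3 libraries.

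Lss encodes lanosterol synthase. It stood at 27.2, 48.1, 14.1 and 6.73 CPM in the 2-day libraries, against 21.1, 96.9 and 46.4 CPM in the P23 controls. It stood at 8.55, 14.8, 18.7, 30.4 and 12.3 CPM in the 5-day libraries, against 13.2, 42.5 and 70.2 CPM in the P26 controls. The controls themselves spread more than 4-fold, and in both ages the lowest control was the replicate 1 that went against its label. Its log2 fold change was -1.19 ± 0.65 at 2 days and -1.31 ± 0.61 at 5 days. The 5-day value was -1.72 without the 3 libraries, 0.0065 with Y-linked transcripts as a covariate and 0.35 in the libraries with Y-linked transcripts alone.

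The last stretch turns lanosterol into cholesterol, and all 9 of its enzymes had a 5-day log2 fold change below 0, with a median of -0.86. Cyp51 (ENSMUSG00000001467, chromosome 5, 4081145 to 4104746, minus strand) encodes lanosterol 14α-demethylase, which opens this stretch. It stood at 91.6, 85.9, 45.6 and 63.6 CPM in the 2-day libraries, against 80.5, 88.5 and 119 CPM in the P23 controls. It stood at 7.45, 30.3, 40.5, 48.1 and 19.1 CPM in the 5-day libraries, against 104, 60.9 and 63.1 CPM in the P26 controls. The 5-day groups did not overlap, and Cyp51 averaged 29.1 ± 16.3 CPM at 5 days (SD, n = 5) and 75.9 ± 24.1 CPM in P26 controls (SD, n = 3). Its log2 fold change was -1.38 ± 0.44 with an edgeR adjusted p of 0.633, -1.08 without the 3 libraries and -1.85 in the libraries with Y-linked transcripts alone. At 2 days Cyp51 had -0.42 ± 0.46, and -0.69 without the 3 libraries.

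Dhcr7 (ENSMUSG00000058454, chromosome 7, 143823145 to 143848410, plus strand) encodes the reductase that turns 7-dehydrocholesterol into cholesterol. It stood at 25.4, 27.6, 8.37 and 31.4 CPM in the 2-day libraries, against 13.2, 52.8 and 21.1 CPM in the P23 controls, which overlap widely. It stood at 18.2, 6.30, 12.3, 20.97 and 9.17 CPM in the 5-day libraries, against 46.6, 33.4 and 43.4 CPM in the P26 controls. All 5-day libraries lay below all P26 controls. For Dhcr7 the log2 fold change was -0.33 ± 0.53 at 2 days and -1.62 ± 0.50 at 5 days, 3.07-fold lower, with an edgeR adjusted p of 0.613. Without the 3 libraries these values were -0.72 and -1.51, and in the libraries with Y-linked transcripts alone 0.76 and -1.82. The 5-day effect minus the 2-day effect was -1.29 ± 0.74, with an edgeR adjusted p of 0.940.

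Nsdhl (ENSMUSG00000031349, chromosome X, 72918557 to 72958514, plus strand) encodes a sterol dehydrogenase that helps remove methyl groups from lanosterol. It stood at 78.5, 123, 25.7 and 67.6 CPM in the 2-day libraries, against 80.7, 181 and 142 CPM in the P23 controls. It stood at 46.1, 36.5, 51.1, 62.6 and 12.3 CPM in the 5-day libraries, against 38.2, 112 and 165 CPM in the P26 controls. The replicate 1 control was the lowest control at both ages. Nsdhl had a log2 fold change of -0.87 ± 0.55 at 2 days and -1.33 ± 0.52 at 5 days. At 5 days it was -1.72 without the 3 libraries, -0.43 with Y-linked transcripts as a covariate and 0.11 in the libraries with Y-linked transcripts alone.

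Sc5d encodes the desaturase that makes 7-dehydrocholesterol, the substrate of the Dhcr7 enzyme. It stood at 15.7, 47.4, 30.8 and 25.2 CPM in the 2-day libraries, against 51.8, 38.5 and 52.5 CPM in the P23 controls. It stood at 12.9, 38.9, 44.9, 47.0 and 32.01 CPM in the 5-day libraries, against 30.3, 36.6 and 45.3 CPM in the P26 controls. Sc5d had a log2 fold change of -0.68 ± 0.42 at 2 days and -0.089 ± 0.41 at 5 days, and the groups overlapped at both ages. Its 5-day value was -0.21 without the 3 libraries and 0.20 in the libraries with Y-linked transcripts alone.

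Msmo1 encodes the methyl oxidase that begins the removal of methyl groups that follows the Cyp51 step, and it stood at 16.3 to 27.5 CPM in the 5-day libraries, against 25.6 to 52.7 CPM in the P26 controls. Only 5-day replicate 4 reached the control range. Ebp encodes a sterol isomerase and stood at 20.1 to 61.5 CPM in the 5-day libraries, against 42.1 to 86.8 CPM in the P26 controls, which overlap. Hsd17b7 encodes the ketosteroid reductase of the demethylation steps and stood at 0 to 9.54 CPM in the 5-day libraries, against 2.08 to 13.1 CPM in the P26 controls.

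Together with Tm7sf2 and Lbr these enzymes had 5-day log2 fold changes of -0.92 ± 0.66 for Tm7sf2, -0.86 ± 0.62 for Lbr, -0.80 ± 0.39 for Msmo1, -0.55 ± 0.99 for Hsd17b7 and -0.35 ± 0.45 for Ebp. In the libraries with Y-linked transcripts alone they were -0.26, -2.10, -1.32, -1.18 and 0.17 in the same order, and without the 3 libraries -1.15, 0.70, -0.47, -0.094 and -0.55. Tm7sf2 and Lbr both encode sterol Δ14-reductases, Lbr being also a protein of the nuclear envelope. Per kb of exon, Tm7sf2 stood at 0.280 to 4.33 CPM in the 5-day libraries, against 3.75 to 9.03 CPM in the P26 controls. Lbr stood at 1.55 to 5.80 CPM per kb at 5 days, against 13.4, 2.33 and 1.57 CPM per kb in the P26 controls. The high Lbr control is P26 control replicate 1. Tm7sf2 shares 12.1% of its exonic bases with Vps51 on the same strand.

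**Figure D3:**
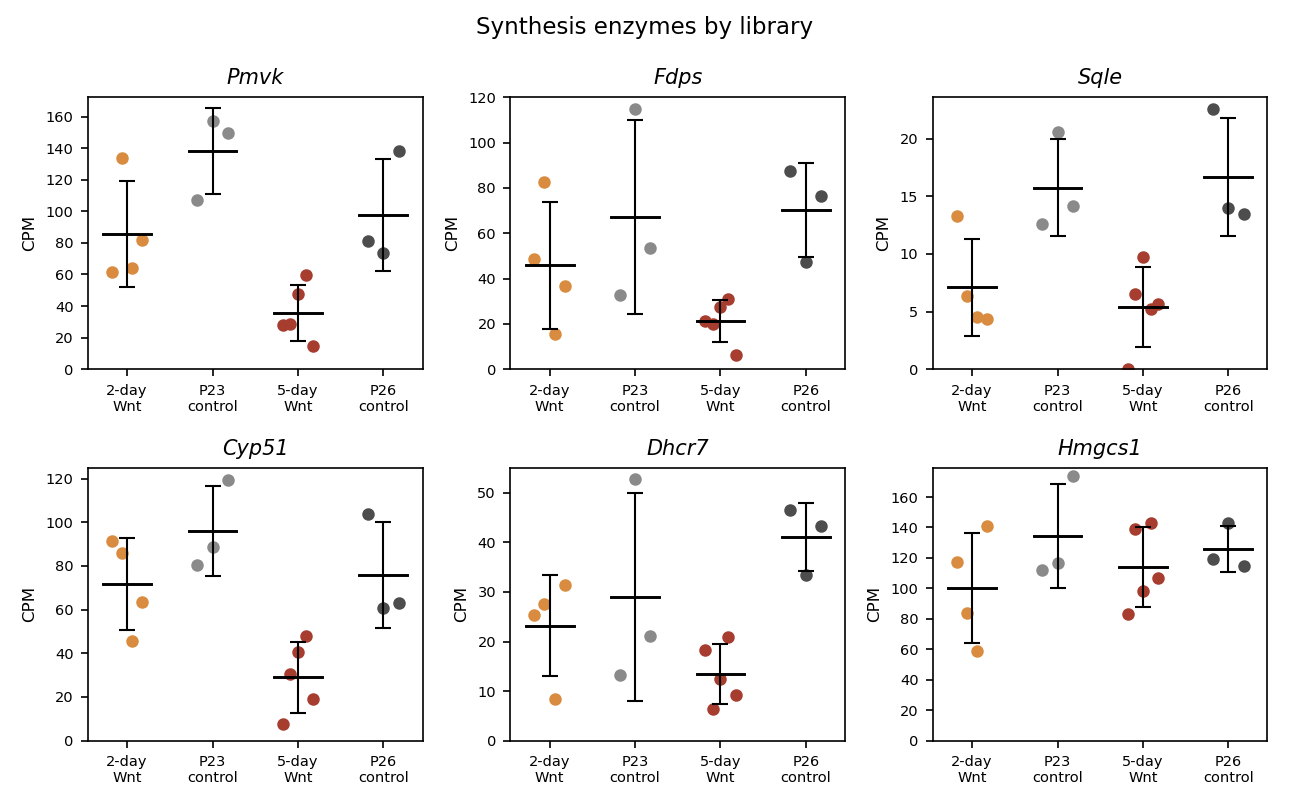
CPM of the 5 synthesis genes whose 5-day and P26 control libraries did not overlap, and of Hmgcs1 for comparison, in each library (points) with the group mean and SD (lines; n = 4, 3, 5 and 3). The 5-day points lie below all P26 control points in the first 5 panels (Pmvk 14.6 to 59.5 CPM against 73.9 to 138 CPM), while those of Hmgcs1 interleave with the controls.

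The summed level of the 20 synthesis genes was 780.2, 1377, 555 and 885 CPM in the 2-day libraries, against 999.6, 1664 and 1240 CPM in the P23 controls. It was 473, 658, 755, 893 and 433 CPM in the 5-day libraries, against 938, 934 and 1291 CPM in the P26 controls, so that each 5-day sum lay below each P26 control sum. Of the 20 genes, 13, 10, 9, 5 and 14 lay below their lowest P26 control in the 5-day libraries, while 22.8%, 14.5%, 13.4%, 12.4% and 20.6% of all genes tested did so in those libraries, and 1, 0, 1, 2 and 1 of the 20 lay above their highest P26 control. In the 2-day libraries 8, 3, 18 and 12 of the 20 lay below their lowest P23 control, while 30.3%, 23.1%, 23.4% and 26.1% of all genes did so, and 3, 3, 0 and 1 of the 20 lay above their highest P23 control. The ratio of Pmvk to Hmgcs1, taken within a library and so free of its scaling, was 0.339, 0.207, 0.484, 0.417 and 0.137 in the 5-day libraries, against 0.678, 0.517 and 1.21 in the P26 controls. It was 0.527, 1.59, 1.09 and 0.583 in the 2-day libraries, against 0.957, 1.35 and 0.863 in the P23 controls. At 5 days these ratios did not overlap, but Pmvk had already been picked out as lying below all P26 controls. The ratio therefore largely restates that choice. It has no share over other gene pairs beside it and was not tested.

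Of the 4 controlling genes 3 were below 0 at 5 days and 2 at 2 days, with medians of -0.061 and -0.014. Srebf2 (ENSMUSG00000022463, chromosome 15, 82147181 to 82205379, plus strand) stood at 76.2, 76.6, 48.1 and 49.2 CPM in the 2-day libraries, against 45.8, 87.3 and 36.8 CPM in the P23 controls. It stood at 31.7, 66.0, 54.6, 75.6 and 50.3 CPM in the 5-day libraries, against 121, 52.0 and 68.3 CPM in the P26 controls. The groups overlapped at both ages, and the 5-day log2 fold change was -0.53 ± 0.37, with a 95% interval of -1.31 to 0.25. The high control is P26 control replicate 1, and the 5-day value was -0.10 without the 3 libraries and -1.15 in the libraries with Y-linked transcripts alone.

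Scap escorts SREBP2 to the Golgi for its activation and Insig2 holds it back in the endoplasmic reticulum. Scap stood at 39.1 to 55.4 CPM in the 5-day libraries, against 35.7 to 62.4 CPM in the P26 controls, and Insig2 at 4.74 to 47.9 CPM, against 19.9 to 28.7 CPM. Their 5-day log2 fold changes were -0.00 ± 0.40 for Scap and 0.13 ± 0.51 for Insig2. Nr1h2 encodes the liver X receptor LXRβ, a sensor of oxysterols. It stood at 53.5, 116, 95.1 and 88.8 CPM in the 2-day libraries, against 106, 127 and 65.4 CPM in the P23 controls. It stood at 101, 69.3, 99.8, 84.8 and 41.4 CPM in the 5-day libraries, against 95.7, 53.0 and 109.7 CPM in the P26 controls. Its log2 fold change was -0.17 ± 0.38 at 2 days and -0.12 ± 0.36 at 5 days, and without the 3 libraries 0.059 and -0.027.

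Sterol export and storage were read from Abca1, Abcg1, Soat1 and Stard4. Abca1 (ENSMUSG00000015243, chromosome 4, 53030787 to 53159895, minus strand) encodes the transporter that loads cholesterol onto lipid-poor apolipoprotein. It stood at 81.1, 106, 225 and 208 CPM in the 2-day libraries, against 291, 131 and 222 CPM in the P23 controls. It stood at 39.7, 223, 191, 218 and 385 CPM in the 5-day libraries, against 129, 293 and 149 CPM in the P26 controls. Its lowest and highest levels over all libraries both occurred in the 5-day group, and the log2 fold change was -0.47 ± 0.55 at 2 days and 0.15 ± 0.54 at 5 days. The Abca1 values without the 3 libraries were 0.0024 and -0.065, and in the libraries with Y-linked transcripts alone -0.71 and 0.69.

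Abcg1 (ENSMUSG00000024030, chromosome 17, 31057675 to 31117988, plus strand) encodes a transporter that exports cholesterol to high-density lipoprotein. It stood at 7.14, 26.5, 65.1 and 28.5 CPM in the 2-day libraries, against 21.1, 17.3 and 16.7 CPM in the P23 controls. All 2-day libraries other than the one labelled replicate 1 lay above the P23 controls. It stood at 30.7, 13.4, 22.5, 15.4 and 57.3 CPM in the 5-day libraries, against 41.1, 43.6 and 39.1 CPM in the P26 controls, where 4 of 5 lay below. Abcg1 had a log2 fold change of 0.79 ± 0.58 at 2 days and -0.57 ± 0.53 at 5 days, and the difference of the effects was -1.36 ± 0.79 with an edgeR adjusted p of 0.942. The Abcg1 values without the 3 libraries were 1.22 at 2 days and -0.57 at 5 days, and with Y-linked transcripts as a covariate 0.18 and -1.30.

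Soat1 (ENSMUSG00000026600, chromosome 1, 156424525 to 156474331, minus strand) encodes the enzyme that esterifies cholesterol for storage. It stood at 15.2, 4.07, 15.7 and 7.78 CPM in the 2-day libraries, against 11.9, 3.37 and 4.51 CPM in the P23 controls. It stood at 21.2, 16.7, 5.73, 9.81 and 33.1 CPM in the 5-day libraries, against 47.3, 30.95 and 17.1 CPM in the P26 controls. Soat1 had a log2 fold change of 0.70 ± 0.65 at 2 days and -0.88 ± 0.60 at 5 days. The Soat1 values without the 3 libraries were 1.20 and -0.48, and in the libraries with Y-linked transcripts alone -0.39 and -1.48. Its clearest difference was between the controls, where P26 lay above P23 by a log2 fold change of 2.27 ± 0.72 (edgeR adjusted p = 0.591), and it was the only one of the 28 with an unadjusted p under 0.05 there, against 6.98% of all genes. Stard4, a carrier of sterols between membranes, stood at 3.24 to 14.3 CPM in the 5-day libraries, against 3.23 to 20.8 CPM in the P26 controls. It had a 5-day log2 fold change of -0.31 ± 0.77 and of 0.75 without the 3 libraries, and of -1.37 in the libraries with Y-linked transcripts alone.

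**Figure D4:**
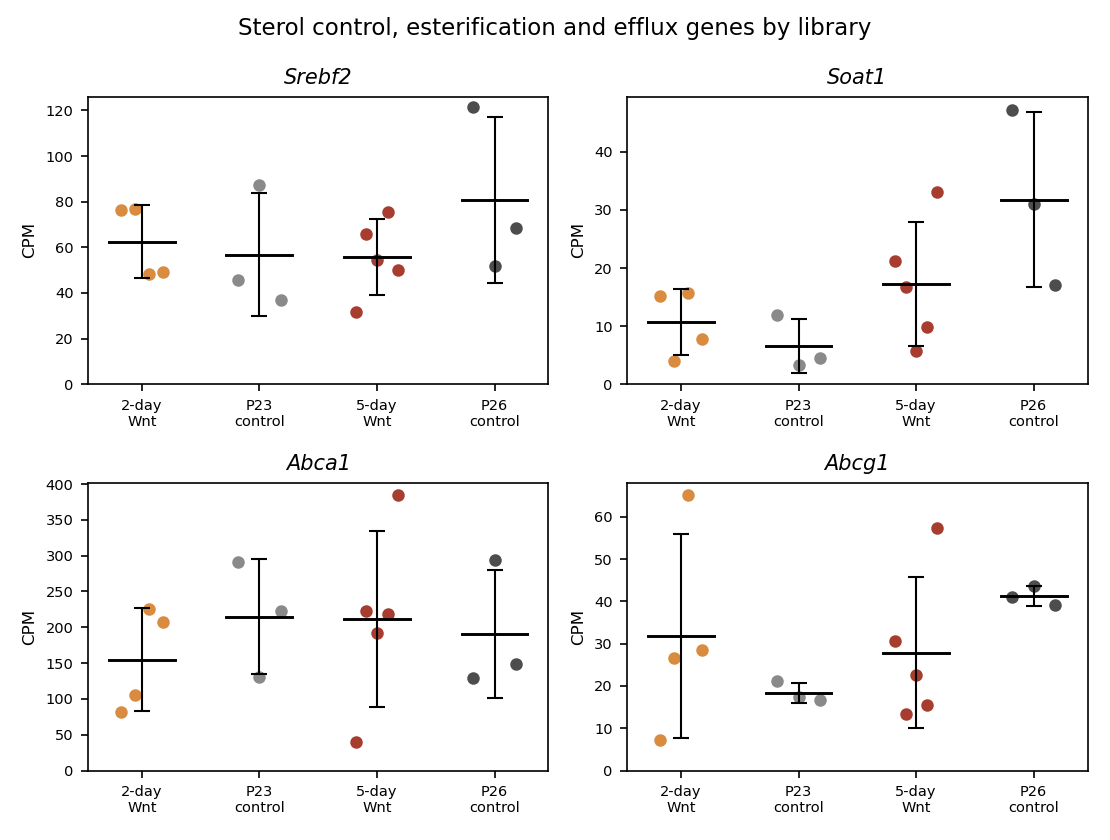
CPM of Srebf2, Soat1, Abca1 and Abcg1 in each library (points) with the group mean and SD (lines; n = 4, 3, 5 and 3). The 5-day and P26 control points overlap in all 4 panels, and for Abcg1 the 5-day replicate 5 point at 57.3 CPM lies above the controls at 39.1 to 43.6 CPM while the other 5-day points lie below them.

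Markers of other cell types also differed between the groups. Of the 12 keratinocyte markers all 12 were below 0 at 5 days, and their summed level was 112 to 1372 CPM in the 5-day libraries, against 1137 to 7468 CPM in the P26 controls. The 12 adipocyte markers were all below 0 as well, with a median of -0.38, summing to 13430 to 68936 CPM at 5 days, against 13286 to 87756 CPM in P26 controls. At 2 days 11 of the 12 were below 0, with a median of -0.44. The synthesis enzymes had medians of -0.83 at 5 days and -0.42 at 2 days. The adipocyte sum of 13286 CPM was that of P26 control replicate 1, while the other P26 controls held 61800 and 87756 CPM. Adipocyte marker medians without the 3 libraries were not computed, so these medians stand side by side only with all libraries as labelled. Of the 10 stromal markers 9 were above 0 at 5 days and all 10 at 2 days. They summed to 16069 to 81598 CPM at 5 days, against 5566 to 25756 CPM in P26 controls, and to 10000.0 to 28764 CPM at 2 days, against 9827 to 10933 CPM in P23 controls. All 6 endothelial markers were above 0 at 5 days, summing to 297 to 920 CPM, against 144 to 204 CPM in P26 controls, with no overlap. All 7 Schwann cell markers were above 0 at 5 days, summing to 279 to 1472 CPM, against 187 to 542 CPM in P26 controls. The 6 skeletal muscle markers summed to 66.1 to 395.6 CPM at 5 days, against 107 to 1022 CPM in P26 controls. The 13 macrophage markers summed to 597 to 2482 CPM at 5 days, against 477 to 3137 CPM in P26 controls, and to 439 to 1517 CPM at 2 days, against 392.6 to 472 CPM in P23 controls. The 10 sebaceous markers summed to 358 to 866 CPM at 5 days, against 554 to 1044 CPM in P26 controls. The 8 hair follicle markers summed to 4840 CPM in the library labelled 2-day replicate 1 and to 622 CPM in P26 control replicate 1. They summed to 269 CPM in 5-day replicate 1 and to at most 57.1 CPM in the other libraries. Among all these markers the keratinocyte Flg was at 0 throughout the 2-day group and Krt33a of the hair follicle throughout the 5-day group. Krt25, Krt71, Krt73, Krt31, Krt35 and the sebaceous Dgat2l6 were at 0 throughout the P23 controls, and Krt31, Krt33a and Dgat2l6 throughout the P26 controls. Some lists turned direction between the ages. All 13 macrophage markers were above 0 at 2 days, and 11 were below 0 at 5 days. Of the 12 keratinocyte markers 7 were above 0 at 2 days. All 6 skeletal muscle markers were above 0 at 2 days, and 5 were below at 5 days. Of 9 sebaceous markers tested 7 were above 0 at 2 days and 6 below at 5 days. The 6 hair follicle markers tested were all above 0 at 2 days and all below at 5 days. Mitochondrial transcripts took 9.20% to 16.6% of the counts at 5 days, against 3.69% to 7.93% in P26 controls, and 8.37% to 31.7% at 2 days, against 5.30% to 9.36% in P23 controls. The part of these differences in the lower synthesis genes was not tested.

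Other sterol genes were taken from a list of 43, of which 42 were in the table and 41 were tested. At 5 days 23 of the 41 were below 0 with a median of -0.12, and at 2 days 24 of the 41 with a median of -0.15. For the mean effect 0 were lower and 3 higher at an unadjusted p under 0.05, against 2.78% and 5.07% of all genes. Vldlr and Mylip were among these.

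Vldlr encodes a lipoprotein receptor. It stood at 28.9, 3.80, 37.6 and 27.8 CPM in the 2-day libraries, against 8.43, 11.3 and 10.6 CPM in the P23 controls. In the 5-day libraries it stood at 12.3, 17.1, 12.0, 14.5 and 58.5 CPM, against 4.67, 16.3 and 14.1 CPM in the P26 controls. Vldlr had a mean effect of 1.12 ± 0.49, with an edgeR adjusted p of 0.582. Mylip encodes a ubiquitin ligase that degrades lipoprotein receptors and had a mean effect of 0.64 ± 0.28, with the same adjusted p to 3 digits. Srebf1, which encodes the SREBP that favours fatty acid synthesis, had a log2 fold change of -1.11 ± 0.58 at 2 days and -0.16 ± 0.56 at 5 days. Nr1h3, which encodes LXRα, had -0.15 ± 0.51 and -0.40 ± 0.49. Npc1, which encodes the protein that releases lipoprotein cholesterol from lysosomes, had 0.44 ± 0.41 at 2 days and -0.22 ± 0.38 at 5 days.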

How the data were processed

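Libraries were made from total RNA with the Universal Plus mRNA-SEQ kit, per the labels' protocols. The authors deposited raw counts per gene, used here as deposited. Tools listed in the submitters' processing notes are DESeq2 1.40.1, Cufflinks 2.2.1, SAMtools 1.9 and Trimmomatic 0.39, and the builds listed are GRCm38 and mm10. Which program aligned and counted the reads, and whether strand was used, is not given in the sources used here. Coordinates are the table's, and lengths are exon unions of GENCODE M21 on GRCm38.

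Genes were filtered with filterByExpr, scaled by TMM and fitted over all 15 libraries in 4 groups with edgeR 4.0.16 (R 4.3.3, robust quasi-likelihood, two-sided, Benjamini-Hochberg, threshold 0.05). DESeq2 1.42.0, limma-voom 3.58.1 with library weights, other scalings and filters, a Y-linked covariate, the sample sheet's grouping and leaving out libraries were alternatives. Leaving out the 3 libraries together was chosen after seeing the data. The members and lists were chosen with earlier results of these data known. Members with values in every library are the 5 with the smallest p in each of the 2-day, 5-day and mean comparisons, the most abundant of each role, and Hmgcs1, Sqle, Srebf2, Soat1, Abca1 and Abcg1. Of the other sterol genes, the 3 with the smallest p for the mean effect and Nr1h3, Srebf1 and Npc1 are named, except that 1 result is not reported here. Values of 1 or 2 made up 0.946% to 1.94% of nonzero values per library, so 1 count need not be 1 molecule. In simulated data with the libraries' own spread (16029 genes) the 5-day test recovered 0% of 2-fold and 1.96% of 4-fold changes, and with 0.1 of that spread (16593 genes) 61.3% and 86.0%.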

Additional observations from a re-analysis of the deposited data

Results flagged for a closer look

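Of 56 groups of 4 or 5 libraries examined, 6 held a library far from the others of its group, where chance gives about 1 in 20. In 2-day replicate 2, Mvk stood at 69.6 CPM, with 25.2 to 30.4 CPM in the rest of that group, Fdft1 at 102 CPM against 30.3 to 39.0 CPM, and Ebp at 137 CPM against 43.5 to 57.9 CPM. In 2-day replicate 3, Ggps1 stood at 20.02 CPM against 10.4 to 11.5 CPM. In the library labelled 2-day replicate 1, Stard4 stood at 14.98 CPM against 5.11 to 5.71 CPM. In 5-day replicate 5, which also held little Adipoq, Mvk stood at 9.67 CPM, with 35.2 to 39.2 CPM in the rest of that group.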

How the results depend on the processing

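Shares of genes called moved with the tool and with the libraries used, and the cause was not tested. edgeR called 0 genes in each comparison, with 875, 1195, 1329, 969 and 1182 genes at an unadjusted p under 0.05 at 2 days, at 5 days, for the mean effect, for the difference of the effects and between the controls. DESeq2 called 0.880%, 1.18%, 1.895%, 0.880% and 1.69% of the genes tested in that order. The weighted limma-voom fit called 1.33% at 5 days, 0.0650% for the mean effect, 0.791% between the controls and 0 in the others. In the libraries with Y-linked transcripts alone, edgeR called 0 at 2 days, 4.72% at 5 days, 2.34% for the mean effect, 2.15% for the difference and 2.81% between the controls. Without the 3 libraries whose Axin2 went against the label it called 0.0114%, 0.0627% and 0.103% at 2 days, at 5 days and for the mean effect. Without P26 control replicate 1 and 2-day replicate 1 together it called 0.0226% and 0.00564% at 5 days and for the mean effect. Leaving out 1 library at a time gave 0 to 0.0225% at 5 days, 0 to 0.0168% for the mean effect and 0 to 0.0112% for the difference, each at most without P26 control replicate 2, and 0 to 0.0300% between the controls, at most without 5-day replicate 5. A replicate block gave 0.0295% between the controls and 0 elsewhere. Same-numbered libraries did not pair, with correlations of -0.0094 to 0.16.

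The members' median log2 fold change over single omissions ran from -0.50 to -0.086 at 2 days, from -0.81 to -0.46 at 5 days, from -0.73 to -0.12 for the difference and from -0.27 to 0.052 between the controls. For the difference it was -0.095 in limma-voom, -0.085 without the 3 libraries and -0.15 without P26 control replicate 1 and 2-day replicate 1. Of 2315 values of single genes under an alternative, 2 passed that had not (Pmvk in DESeq2) and 39 moved by more than the spread between libraries. The sign held under all alternatives run for 10, 12 and 14 of the 28 genes at 2 days, at 5 days and for the mean effect. With a spread this wide, a lack of calls does not show that levels were alike.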
